A study of Mus musculus with 2 samples.

Results

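Lpl, Abca1, Abcg1, Apoe, Nr1h3, Plin2, Pparg and Fabp4 are 8 genes by which macrophages take up, store and release lipid. They were chosen by name, with earlier results of these data known, and each matched 1 of the 26124 gene rows of the deposited tables. Their transcripts were followed in red pulp macrophages (RPMs), erythroblastic island (EBI) macrophages, monocytes and dendritic cells (DCs) of the mouse spleen. The cells came from 2 droplet single-cell RNA libraries of the Berkeley model of sickle cell disease (SCD), 1 mouse per library, and had been enriched with magnetic beads coated with an antibody against F4/80, a macrophage surface protein. The control mouse, called wild-type, was homozygous for Hbatm1Paz, heterozygous for Hbbtm1Tow and hemizygous for Tg(HBA-HBBs)41Paz, and does not sickle. The SCD mouse carried the same alleles, with Hbatm1Paz, Hbbtm1Tow and the transgene all homozygous, and sickles. By the labels both lacked mouse α-globin, both carried the human transgene, both were 12 to 16 weeks old, and neither was treated. Red cells had been lysed before enrichment. With 1 mouse per genotype there is no test between the mice, and a difference between the libraries may be that of the genotypes, the mice or the preparations.

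Macrophages of the red pulp engulf aged red cells and so take in membrane cholesterol together with heme. Lipoprotein lipase (Lpl) releases fatty acids from lipoproteins, and Fabp4 carries fatty acids inside the cell. Plin2 coats lipid droplets, in which surplus lipid is kept as ester. The transporters Abca1 and Abcg1 hand cholesterol to lipoproteins outside the cell, and apolipoprotein E (Apoe) takes part in that removal. Nr1h3 encodes LXRα, a nuclear receptor for oxidized cholesterol that is needed for macrophages of the splenic marginal zone and induces Abca1, Abcg1 and Apoe. Pparg encodes a nuclear receptor for fatty acids, with Fabp4 and Plin2 among its known targets.

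The 8 genes lie on 7 chromosomes of the GRCm38 build, by the GENCODE M21 annotation, whose identifiers were those of the deposited tables. Abca1 (ENSMUSG00000015243) lies on the minus strand at chr4:53030787-53159895 and Plin2 (ENSMUSG00000028494) on the same strand at chr4:86648386-86670060. Lpl (ENSMUSG00000015568) lies at chr8:68880491-68907448, Abcg1 (ENSMUSG00000024030) at chr17:31057675-31117988 and Pparg (ENSMUSG00000000440) at chr6:115360951-115490399, all on the plus strand. On the minus strand are Apoe (ENSMUSG00000002985) at chr7:19696109-19699188, Nr1h3 (ENSMUSG00000002108) at chr2:91184061-91202834 and Fabp4 (ENSMUSG00000062515) at chr3:10204088-10208576. All 8 are protein-coding. The promoter of Abca1 is shown because it is a textbook site of LXR action, and the motif searched was chosen with that site in mind. The stretch is the 120 bases before the RefSeq start, GRCm38.p6, chr4:53159896-53160015, minus strand, and capitals mark the reverse complement of GGTNA and GGTCA with 5 bases between them, a spaced repeat that LXR with its partner RXR can bind.

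Abca1: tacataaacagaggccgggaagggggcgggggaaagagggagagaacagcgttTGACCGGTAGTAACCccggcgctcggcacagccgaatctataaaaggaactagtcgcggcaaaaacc

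The motif lies 67 to 53 bases before the start. On both strands of RefSeq's promoter windows, from 250 bases before to 50 bases after a start, it was found in 68 of 32851 promoters (0.207%). Of the 5 genes with an entry (Abca1, Apoe, Nr1h3, Plin2 and Pparg, 10 promoters in all), Abca1 was the gene that held it. The letters AGGNCA, repeated with 1 base between, which PPARγ with RXR can bind, were found in 0.381% of all promoters and in none of these 10, which says only that they are not in these windows. Lpl, Abcg1 and Fabp4 had no entry.

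The wild-type-labelled library held 145953464 UMIs (unique molecular identifiers, 1 per captured transcript) and the SCD-labelled library 73986356. After filtering, 19418 and 12279 cells remained, with medians of 4115.5 and 4571 UMIs per cell, and 65 kept barcodes occurred in both libraries. The mouse β-globin gene went against the labels. In erythroid-like cells, Hbb-bs stood at 132 CPM (the count in a sum of 1000000 UMIs) in the wild-type-labelled library, from a mouse that should keep a mouse β-globin allele, and at 59309.5 CPM in the SCD-labelled library, from a mouse that should have none. Every direction below is therefore that between the libraries as labelled, and which genotype each library holds was not settled. Cells were clustered without the 8 genes, and clusters were named from marker genes. RPM-like cells numbered 4686 in the wild-type-labelled library and 1626 in the SCD-labelled library. EBI-like cells, with both macrophage and erythroid markers, numbered 3516 and 691. The paper reports an expansion of both kinds of macrophage in the SCD spleen, whereas both were fewer here in the SCD-labelled library. The adipocyte list (Adipoq, Cidec, Plin1, Lep and Retn) summed to at most 3.80 CPM in any cell group, and Adipoq was at 0 in RPM-like cells of both libraries. Of the 6 endothelial markers, Emcn was at 0 in every group, and Pecam1, which leukocytes also make, gave most of the sum outside Ccr7-positive DC-like cells. In those Kdr added 42.1 CPM to the 44.6 CPM of Pecam1 in the wild-type-labelled library and 10.7 to 54.6 CPM in the SCD-labelled library.

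In RPM-like cells, the lipase Lpl and the fatty acid carrier Fabp4 were the members that stood far apart between the libraries, both lower in the SCD-labelled library. Apoe and Abca1 were lower there by less, Pparg and Plin2 by less still, and Nr1h3 and Abcg1 were somewhat higher. In the median over the 8 genes the log2 ratio of the SCD-labelled library to the wild-type-labelled library was -0.56, beside 0.20 over the 9980 genes that had 100 UMIs or more there. Lpl and Fabp4 were the 2 of 8 members at least 2-fold lower, beside 4.2% of all genes at least 2-fold lower in the same cells, and 0 of 8 were at least 2-fold higher, beside 9.02% of all genes. The intervals below are 95% exact Poisson intervals over summed UMIs, and cover counting error only, not the spread between mice.

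Lpl stood at 1703.9 CPM (1684.2 to 1723.8) in the wild-type-labelled library and at 324.1 CPM (311.3 to 337.3) in the SCD-labelled library. That is a 5.26-fold lower level, a log2 ratio of -2.39 (-2.45 to -2.33). Fabp4 stood at 239.2 CPM (231.9 to 246.7) and 19.6 CPM (16.5 to 23.0). It was 12.2-fold lower in the SCD-labelled library, where it rested on 146 UMIs in 1626 cells, a log2 ratio of -3.61 (-3.86 to -3.37). The intervals of the libraries did not overlap for either gene.

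Among the genes of cholesterol release, Apoe stood at 2821.5 CPM in the wild-type-labelled library and 1481.9 CPM in the SCD-labelled library, a log2 ratio of -0.93 (-0.96 to -0.90), just inside the 2-fold limit. Abca1 stood at 743.4 and 479.2 CPM, a log2 ratio of -0.63 (-0.69 to -0.58). Its partner Abcg1 went the other way, from 420.1 to 501.4 CPM, a log2 ratio of 0.26 (0.20 to 0.31). Abcg1 thus stood near the median of all genes, 0.20, while Abca1 and Apoe stood below it.

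The receptors themselves differed little. Nr1h3 stood at 416.7 CPM in the wild-type-labelled library and 554.1 CPM in the SCD-labelled library, a log2 ratio of 0.41 (0.36 to 0.47). Pparg stood at 178.4 and 128.2 CPM, a log2 ratio of -0.48 (-0.58 to -0.37). Plin2 stood at 118.7 and 97.8 CPM, a log2 ratio of -0.28 (-0.40 to -0.16). The macrophage adhesion gene Vcam1 was at like levels in the same cells, 8468.7 and 8181.3 CPM (log2 ratio -0.05). Cd5l, a secreted protein of macrophages and a known LXR target, was lower by about as much as Lpl, at 3102.3 and 555.9 CPM (log2 ratio -2.48). RPM-like cells had a median of 2146 UMIs in the wild-type-labelled library and 4070 in the SCD-labelled library, and the summed erythroid markers stood at 584 and 146 CPM in them. The summed endothelial markers stood at 86.3 and 265 CPM, of which Pecam1 gave 84.8 and 264 CPM. The part of these differences in the ratios was not tested.

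**Figure D1:**
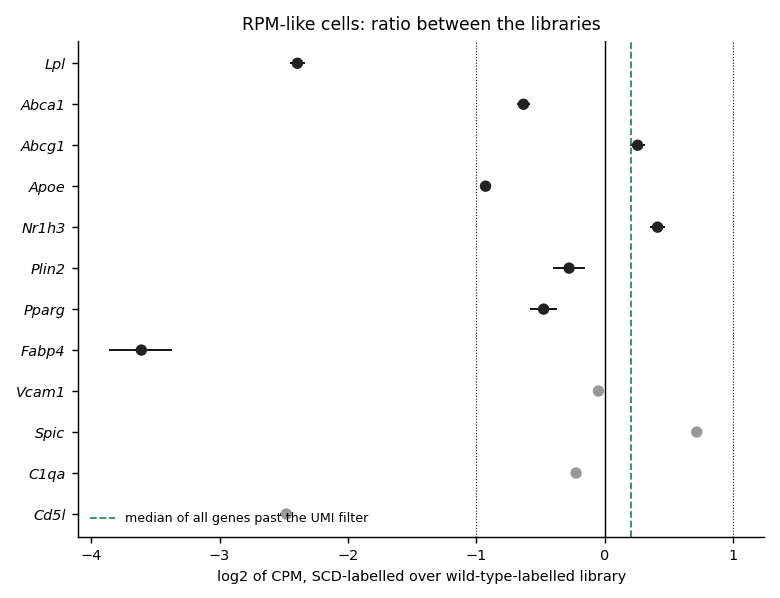
Log2 ratio of CPM, SCD-labelled over wild-type-labelled library, in RPM-like cells for the 8 genes (black) and 4 macrophage genes (grey), with 95% intervals of counting error where they are wider than the points. Dotted lines mark 2-fold, and the dashed line the median of all genes, 0.20; Fabp4 (-3.61) and Lpl (-2.39) lie beyond the 2-fold line and Vcam1 (-0.05) lies near 0.

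RPM-like cells fell into 3 clusters, and the libraries hardly shared any of them. The cluster led by Dock3 and Ank2 held 1101 cells of the wild-type-labelled library and 5 of the SCD-labelled library. The cluster led by Marco and Cd5l held 3548 and 18. The cluster led by Rgs1 and Adamdec1 held 37 and 1603. Within the wild-type-labelled library, the clusters led by Dock3 and by Marco hardly differed in Lpl (1717.4 and 1692.2 CPM), Apoe (2822.7 and 2827.3 CPM) or Fabp4 (239.7 and 239.5 CPM). They did differ in Pparg, at 225 CPM (215 to 235) and 128 CPM (121 to 137), and in Abca1, at 839 CPM (820 to 859) and 641 CPM (623 to 658). These clusters also differed in depth, with medians of 7190.5 and 1648 UMIs per cell over both libraries. The part of depth in these differences was not tested.

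The few cells that lay in the other library's clusters stayed on the side of their own library for Lpl. The 37 cells of the wild-type-labelled library in the cluster led by Rgs1 had Lpl at 1302.8 CPM (1021.2 to 1638.0), and the 1603 cells of the SCD-labelled library there had 324.6 CPM (311.8 to 337.9). The 18 cells of the SCD-labelled library in the cluster led by Marco had 3 Lpl UMIs, 158 CPM (32.7 to 463). Fabp4 followed the same pattern in the cluster led by Rgs1, at 125 CPM (50.2 to 257) in the wild-type-labelled library and 19.7 CPM (16.6 to 23.2) in the SCD-labelled library. For Abca1 in that cluster the intervals overlapped, at 535 CPM (361 to 764) and 480 CPM (465 to 497). For Apoe they overlapped too, at their ends, at 1802 CPM (1468 to 2190.1) and 1478 CPM (1450.3 to 1506). These cells also took up free RNA of their own library, whose part in these levels was not tested.

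**Figure D2:**
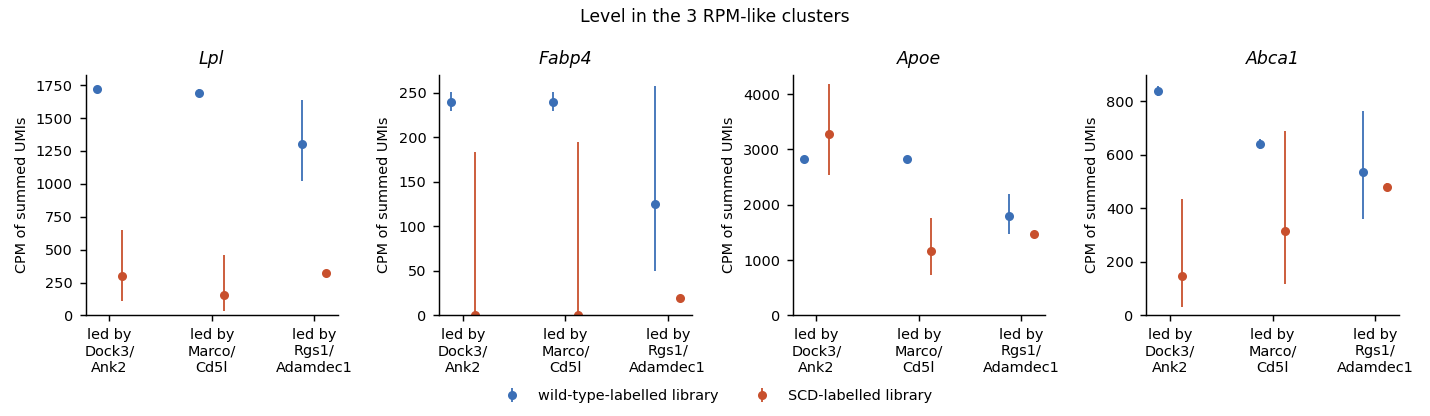
CPM of Lpl, Fabp4, Apoe and Abca1 in the 3 RPM-like clusters, 1 point per library with its 95% Poisson interval. Lpl of the wild-type-labelled library was at 1302.8 CPM or above in each cluster, whereas intervals are wide where a library gave 5, 18 or 37 cells.

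The share of cells with a transcript was compared after each cell had been thinned to 1000 UMIs, which left out 678 shallower RPM-like cells of the wild-type-labelled library and 143 of the SCD-labelled library. A UMI of Lpl was then found in 76.1% of 4008 cells (exact binomial interval 74.7 to 77.4) and in 25.5% of 1483 cells (23.3 to 27.8). For Fabp4 the shares were 19.0% (17.8 to 20.3) and 2.23% (1.54 to 3.11). In B lymphocyte-like cells of the main cluster, which should lack these genes, the shares were 23.0% and 3.50% for Lpl and 3.07% and 0.437% for Fabp4, with medians of 2257.5 and 2948 UMIs. The RPM-like share of each gene was thus above this background in both libraries.

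Apoe was found in 90.9% and 70.8% of RPM-like cells and Abca1 in 48.4% and 33.2%. Nr1h3 was found in 34.0% and 39.8%, and Abcg1 in 31.6% and 37.0%. Pparg was found in 13.1% and 10.7%, and Plin2 in 11.0% and 8.43%, with intervals that for Pparg overlapped (12.1 to 14.2 and 9.13 to 12.3). The shares of B lymphocyte-like cells at that depth were 44.5% and 21.4% for Apoe, 15.4% and 13.3% for Abca1, 13.2% and 12.4% for Abcg1, 5.06% and 6.23% for Nr1h3, 1.63% and 1.37% for Pparg and 3.25% and 2.18% for Plin2, each below that of RPM-like cells of the same library. Without thinning, the deeper RPM-like cells of the SCD-labelled library brought the shares of Abca1 level, at 68.7% and 69.0%, and turned the order for Pparg (34.1% and 36.2%) and Plin2 (28.4% and 32.6%). Lpl (88.1% and 55.3%), Fabp4 (41.5% and 6.83%), Apoe (95.9% and 89.4%), Nr1h3 (60.3% and 77.5%) and Abcg1 (57.4% and 74.0%) kept their order.

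EBI-like cells, droplets with transcripts of both macrophages and erythroblasts, had the pattern of RPM-like cells at somewhat lower levels. Lpl stood at 1407.2 CPM in the wild-type-labelled library and 251.6 CPM in the SCD-labelled library, a log2 ratio of -2.48. Fabp4 stood at 206.4 and 20.4 CPM, a log2 ratio of -3.34, and Apoe at 2523.6 and 1021.2 CPM, a log2 ratio of -1.31. Lpl, Fabp4 and Apoe were thus the 3 of 8 members at least 2-fold lower, beside 8.14% of all 9272 genes past the filter, and none was 2-fold higher, beside 4.39%. Nr1h3 and Abcg1 were again somewhat higher in the SCD-labelled library, with log2 ratios of 0.52 and 0.17. The EBI-like cells of the SCD-labelled library came mainly from a cluster led by Hbb-bs and Hbb-bt (631 of 691 cells), and those of the other library from 3 further clusters.

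Free RNA, which droplets take up from broken cells, bears on every level outside the macrophages. In B lymphocyte-like cells of the main cluster, Lpl stood at 289 CPM in the wild-type-labelled library and 54.3 CPM in the SCD-labelled library. Those levels were 5.89- and 5.97-fold below RPM-like cells of the same library, and Vcam1 stood at 1274.2 and 1232.5 CPM in the same cells. If macrophages were the source of all UMIs of a gene and of Vcam1, its number per 100 Vcam1 UMIs would be that of the macrophages in every cell group. Vcam1 made by a group itself would lower that number, and whether any group did so was not tested. Lpl had 20.1 UMIs per 100 Vcam1 UMIs in RPM-like cells of the wild-type-labelled library, 20.2 in EBI-like, 20.2 in erythroid-like, 22.2 in Ccr7-positive DC-like and 22.7 in B lymphocyte-like cells. In the SCD-labelled library it had 3.96, 4.07, 4.21, 3.74 and 4.41 in the same order. Lpl in the erythroid-like, Ccr7-positive DC-like and B lymphocyte-like cells was therefore near the ratio of macrophage RNA, and is not read as their own. In Ccr7-positive DC-like cells of the wild-type-labelled library it was at 1.11-fold (1.04 to 1.17) of RPM-like cells. EBI-like cells were named for macrophage markers besides erythroid ones, so their ratio does not tell their own Lpl from free RNA. Their cluster led by Slfn14 held 1421 cells of the wild-type-labelled library. Its median macrophage marker was 4.34 times the B lymphocyte-like level, near the limit of 4, and only its erythroid list was raised over the remaining cells. In an erythroid-like cluster led by Xpo7 that median was 3.56 times. For Apoe, Abca1, Abcg1 and Plin2 the B lymphocyte-like cells themselves stood above that ratio in both libraries. So they did for Nr1h3, by less, and for Fabp4 in the SCD-labelled library. A value above the ratio of macrophage RNA therefore does not alone mark a group's own RNA.

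**Figure D3:**
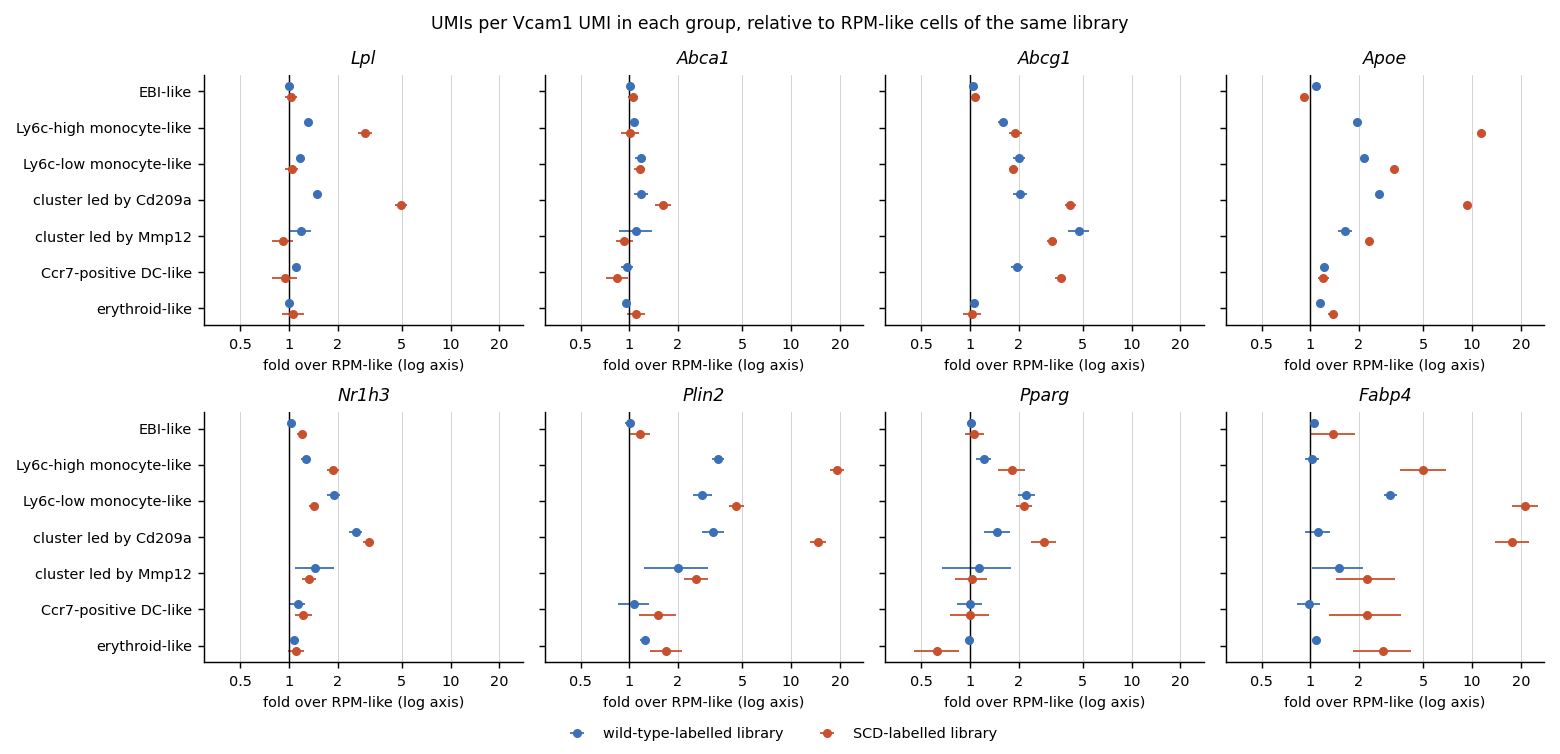
UMIs of each gene per Vcam1 UMI in a cell group, divided by the same value in RPM-like cells of the same library (log axis), with 95% intervals of counting error. Values near 1 are at the ratio of macrophage RNA; Plin2 and Apoe in Ly6c-high monocyte-like cells and Fabp4 in Ly6c-low monocyte-like cells stand above it, by most in the SCD-labelled library. B lymphocyte-like cells, not drawn, were also above it for Apoe, Abca1, Abcg1 and Plin2, by less for Nr1h3, and for Fabp4 in the SCD-labelled library.

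Of the monocytes, Ly6c-low monocyte-like cells, known as patrolling cells of the blood vessel wall, stood out by Fabp4. Fabp4 stood at 272 CPM (250 to 296) in 439 cells of the wild-type-labelled library and at 127 CPM (117 to 137) in 1107 cells of the SCD-labelled library. Both levels were above those of RPM-like cells, by 1.14-fold in the wild-type-labelled library and 6.46-fold in the SCD-labelled library. Per 100 Vcam1 UMIs, Fabp4 was 3.11-fold (2.84 to 3.41) and 21.2-fold (17.7 to 25.6) above RPM-like cells. After thinning, 24.0% and 12.4% of Ly6c-low cells had a Fabp4 UMI, well above the shares in B lymphocyte-like cells. Between the libraries the log2 ratio of Fabp4 was -1.10 here and -3.61 in RPM-like cells.

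Pparg, a known regulator of Fabp4, stood at 146 and 84.7 CPM in Ly6c-low monocyte-like cells, 2.24- and 2.17-fold above RPM-like cells per 100 Vcam1 UMIs. Apoe stood at 2225.1 and 1481 CPM there, 2.16- and 3.28-fold above by the same measure. B lymphocyte-like cells of the main cluster were about level with the first of these 2 folds and below the second. Lpl (725.9 and 102.6 CPM) and Abca1 (319 and 169 CPM) were at 1.04- to 1.17-fold of the macrophage ratio and thus close to it. Whether these UMIs were free RNA was not tested. Lpl and Fabp4 were the 2 of 8 members at least 2-fold lower in the SCD-labelled library, beside 2.06% of 7467 genes, and none was 2-fold higher, beside 2.67%.

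Ly6c-high monocyte-like cells, the classical monocytes that enter inflamed tissue, had more Plin2 and Apoe for their Vcam1 than RPM-like cells, by most in the SCD-labelled library. The values are from the cluster led by Fn1 (1053 and 1037 cells), without a smaller cluster of the same name led by Hbb-bs. Plin2 stood at 101 CPM (93.7 to 109) in the wild-type-labelled library and 151 CPM (142 to 161) in the SCD-labelled library, a log2 ratio of 0.58 (0.44 to 0.72), opposite in sign to that of RPM-like cells. Per 100 Vcam1 UMIs it was 3.53-fold and 19.2-fold above RPM-like cells. Apoe stood at 1317.2 and 1355.5 CPM, a log2 ratio of 0.04 (-0.00 to 0.08), and per 100 Vcam1 UMIs at 1.94- and 11.4-fold of RPM-like cells. By this measure B lymphocyte-like cells of the main cluster were about level with the first of these values and far below the second. In CPM, Apoe was lower in Ly6c-high than in Ly6c-low cells in both libraries.

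The other members were low in Ly6c-high cells of the SCD-labelled library. Abca1 stood at 192 and 38.8 CPM there, at 1.07- and 1.01-fold of the macrophage ratio. B lymphocyte-like cells of the main cluster were above it by that measure in both libraries. Lpl, at 538 and 76.9 CPM, was at 1.31-fold in the wild-type-labelled library but 2.96-fold (2.68 to 3.26) in the SCD-labelled library. At least 2-fold lower in the SCD-labelled library were 5 of 8 members (Lpl, Abca1, Abcg1, Pparg and Fabp4), beside 4.06% of 8720 genes, and none was 2-fold higher, beside 2.34%. Vcam1 itself was lower there, at 2040.2 and 656 CPM (log2 ratio -1.64). Whether this was less free macrophage RNA or less Vcam1 of the cells themselves was not tested. A lower level of these genes therefore cannot be told apart from less free RNA.

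A cluster led by Cd209a and Clec10a, left unnamed because Ly6c-low monocyte markers were the most raised but conventional DC markers were more frequent among its leading genes, held 300 and 783 cells. In the SCD-labelled library it had more of every member per 100 Vcam1 UMIs than RPM-like cells. Fabp4 was 17.6-fold, Plin2 14.7-fold, Apoe 9.24-fold, Lpl 4.94-fold, Abcg1 4.19-fold and Nr1h3 3.12-fold above, whereas Pparg was 2.87-fold and Abca1 1.62-fold above. Abca1 stood at 60.9 CPM in this cluster and 158 CPM in B lymphocyte-like cells of the main cluster. Per 100 Vcam1 UMIs, too, those B lymphocyte-like cells had more Abca1 than this cluster, but less of each other member. In the wild-type-labelled library the same measure ran from 1.11-fold for Fabp4 to 3.30-fold for Plin2. In CPM, Plin2 stood at 104 and 113, Apoe at 1970.2 and 1074.1, and Lpl at 669 and 126. At least 2-fold lower in the SCD-labelled library were 5 of 8 members (Lpl, Abca1, Nr1h3, Pparg and Fabp4), beside 3.27% of 7316 genes, and none was 2-fold higher, beside 2.98%. Vcam1 had a log2 ratio of -1.80 in this cluster, and its part in these folds and ratios was not tested.

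In Ccr7-positive DC-like cells and in a cluster led by Mmp12, the transporter Abcg1 was the member farthest above the ratio of macrophage RNA. Further unnamed clusters with raised DC markers, led by Tppp3, Cep55, Cd7 and Ifitm1, were not among the groups described. Ccr7-positive DC-like cells, which carry antigen to T cells, had Abcg1 at 283 CPM in 459 cells of the wild-type-labelled library and 274 CPM in 662 cells of the SCD-labelled library, a log2 ratio of -0.05. That was 1.96- and 3.64-fold of the macrophage ratio, while Abca1 was at 0.97- and 0.84-fold, Lpl at 1.11- and 0.94-fold and Pparg at 1.01-fold in the SCD-labelled library. Fabp4 (2.23-fold, 1.31 to 3.61) and Plin2 (1.51-fold, 1.15 to 1.95) were also above it in the SCD-labelled library, at 0.98- and 1.07-fold in the other. Apoe (1.21-fold in both) and Nr1h3 (1.13- and 1.23-fold) were closer to it. After thinning, 23.3% and 24.1% of these cells had an Abcg1 UMI, beside 13.2% and 12.4% of B lymphocyte-like cells of the main cluster. Fabp4 and Plin2 were not above those B lymphocyte-like cells in the SCD-labelled library. The thinned shares there were 0.310% beside 0.437% for Fabp4 and 1.08% beside 2.18% for Plin2. Per Vcam1 UMI, the B lymphocyte-like values lay within the 2 intervals given above. Abcg1 was above the macrophage ratio in monocyte-like cells as well. It was at 2.01- and 1.86-fold in Ly6c-low and 1.59- and 1.91-fold in Ly6c-high monocyte-like cells. Per Vcam1 UMI, those B lymphocyte-like cells also had more Abcg1 than RPM-like cells. In the wild-type-labelled library they had about as much as the Ccr7-positive DC-like cells. At least 2-fold lower in the SCD-labelled library were 5 of 8 members (Lpl, Abca1, Apoe, Pparg and Fabp4), beside 4.98% of 6386 genes, and none was 2-fold higher, beside 1.94%. Vcam1 had a log2 ratio of -1.25 in the same cells.

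A cluster led by Mmp12, in which 7 of 8 markers of conventional type 2 DCs were raised but which was left unnamed because its 10 leading genes held no DC marker and 1 progenitor marker, Kit, held 425 and 2025 cells. For 7 of 8 members, all but Abcg1, it had the lowest level of the 9 groups in both libraries. Abcg1 stood at 129 and 107 CPM, 4.71- and 3.23-fold of the macrophage ratio. In B lymphocyte-like cells of the main cluster it stood at 128 and 148 CPM. After thinning, 11.3% and 10.0% of cells of the Mmp12-led cluster had an Abcg1 UMI, beside 13.2% and 12.4% of those B lymphocyte-like cells. In CPM and in share, Abcg1 was thus level with or below them. Plin2 was at 1.99- and 2.57-fold, Apoe at 1.64- and 2.31-fold, Fabp4 at 2.23-fold in the SCD-labelled library and Nr1h3 at 1.46- and 1.33-fold of it. In the wild-type-labelled library Apoe per Vcam1 UMI was lower than in B lymphocyte-like cells of the main cluster. The interval of Plin2 there was wide (1.23 to 3.05) and held the value of those B lymphocyte-like cells. In the SCD-labelled library Fabp4 stood at 2.89 CPM in this cluster and 5.02 CPM in those B lymphocyte-like cells. The interval of its fold (1.44 to 3.34) held their value. Pparg, at 13.1 and 8.67 CPM, and Lpl, at 131 and 19.6 CPM, were near the macrophage ratio, at 1.13- and 1.02-fold and at 1.18- and 0.92-fold. At least 2-fold lower in the SCD-labelled library was 1 of the 7 members past the filter (Lpl), beside 0.694% of 8645 genes, and none was 2-fold higher, beside 1.72%. Fabp4, with 61 UMIs in all, was not past the filter.

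Set in order over the named cell classes, 6 of the 8 genes (Lpl, Abca1, Abcg1, Apoe, Nr1h3 and Pparg) were highest in RPM-like cells in both libraries. For 5 of them the next group, EBI-like cells, had an interval that did not overlap with that of RPM-like cells in either library. The exception was Apoe in the SCD-labelled library, where Ly6c-low monocyte-like cells (1481.0 CPM) were level with RPM-like cells (1481.9 CPM) and Ly6c-high cells followed at 1355.5 CPM. Fabp4 was highest in Ly6c-low monocyte-like cells in both libraries, with intervals clear of the next group. In the SCD-labelled library its next groups, the cluster led by Cd209a (27.1 CPM), EBI-like (20.4 CPM) and RPM-like cells (19.6 CPM), overlapped.

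Plin2 had the flattest order. In the wild-type-labelled library, Ly6c-low monocyte-like (122 CPM), RPM-like (119 CPM), Cd209a-led (104 CPM), Ly6c-high (101 CPM) and EBI-like cells (98.8 CPM) overlapped from neighbour to neighbour. In the SCD-labelled library, Ly6c-high cells of the cluster led by Fn1 (151 CPM) and Ly6c-low cells (137 CPM) overlapped and stood above the cluster led by Cd209a (113 CPM) and RPM-like cells (97.8 CPM). At the low end, the main B lymphocyte-like cluster and the cluster led by Mmp12 did not differ beyond counting error for Abcg1, Plin2, Pparg or Fabp4 in the wild-type-labelled library. Abca1 in B lymphocyte-like cells, at 167 and 158 CPM, was well above the cluster led by Mmp12 (53.3 and 29.5 CPM) in both libraries. Per 100 Vcam1 UMIs, Abca1 had 13.1 and 12.8 UMIs in these B cells and 8.78 and 5.86 in RPM-like cells.

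**Figure D4:**
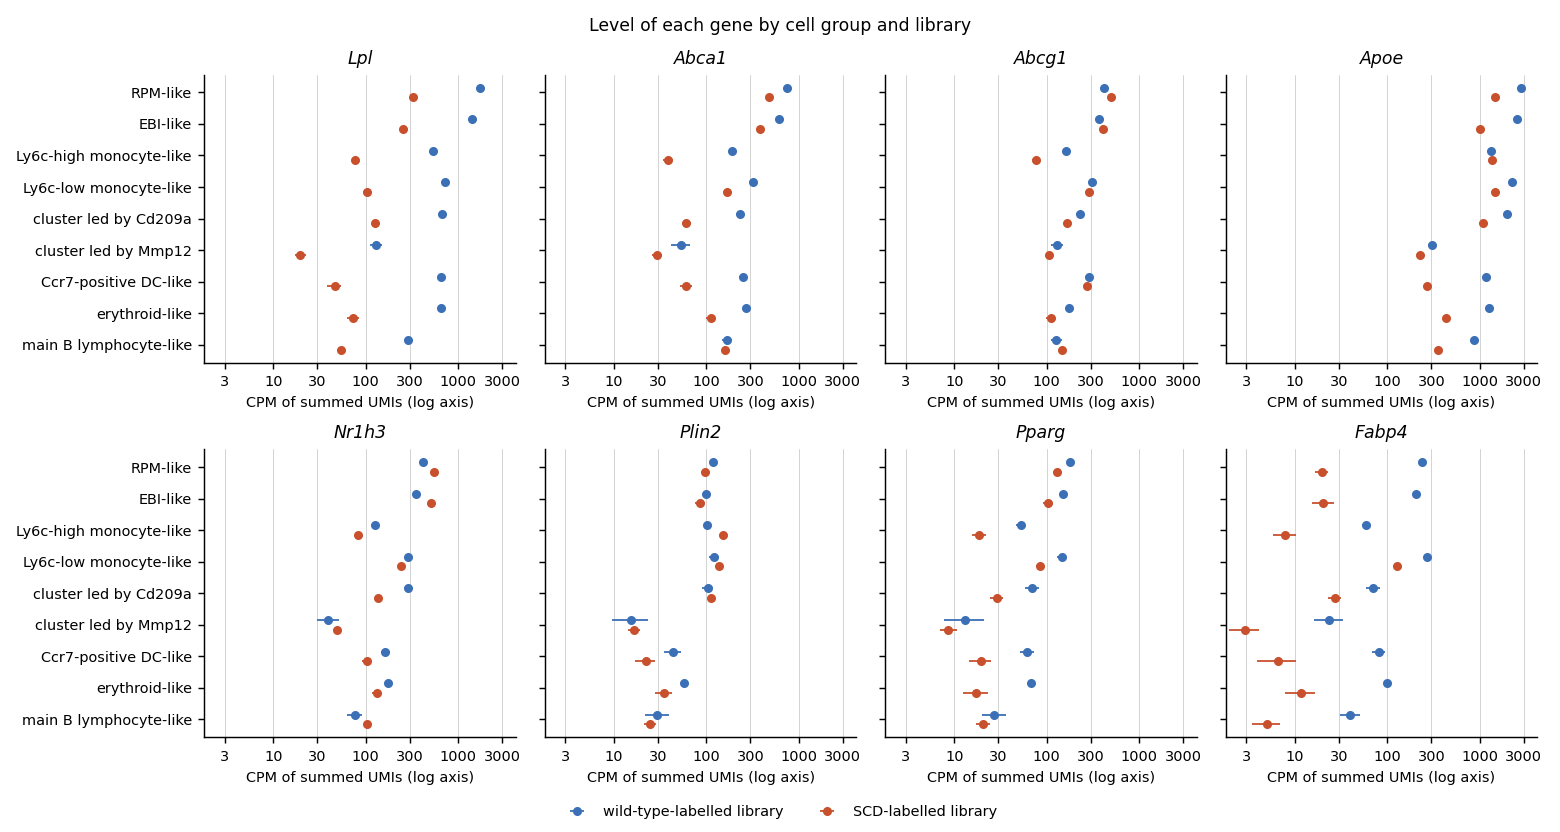
CPM of summed UMIs (log axis, the same in each panel) of the 8 genes in 9 cell groups, 1 point per library with its 95% Poisson interval. Lpl runs from 1703.9 CPM in RPM-like cells to 131 CPM in the cluster led by Mmp12 in the wild-type-labelled library, Fabp4 peaks in Ly6c-low monocyte-like cells and Plin2 stays between 86.3 and 151 CPM over macrophages, monocytes and the Cd209a-led cluster.

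Relative to RPM-like cells, the monocyte-like groups, Ccr7-positive DC-like cells and the cluster led by Mmp12 were lower for most members. Over Ly6c-high monocyte-like cells, 7 of 8 members were at least 2-fold higher in RPM-like cells in the wild-type-labelled library, beside 12.4% of all genes, and 6 of 8 in the SCD-labelled library, beside 17.3%. Over Ly6c-low cells the counts were 2 of 8, beside 8.34%, and 3 of 8, beside 10.7%. Over Ccr7-positive DC-like cells they were 7 of 8 in each library, beside 12.5% and 22.1%, and over the cluster led by Mmp12 8 of 8 in each, beside 18.9% and 15.5%.

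Further genes of lipid handling were described in RPM-like cells by 9 lists, with genes named from the 2 highest and the 2 lowest log2 ratios of each list among genes with at least 100 UMIs. Of the 10 genes of lysosomal lipid handling, all past the filter, 8 were lower in the SCD-labelled library and 1 was at least 2-fold lower, with a median log2 ratio of -0.58. Lipa, the acid lipase that frees cholesterol from engulfed esters, stood at 1143 and 469 CPM, a log2 ratio of -1.29, and Lamp1, a lysosomal membrane protein, had -0.74. Stard3, a lysosomal cholesterol carrier, had 0.03.

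Of 7 lipid uptake receptors past the filter, 2 were at least 2-fold lower and none higher, with a median of -0.25. The scavenger receptor Cd36 stood at 171 and 25.6 CPM, a log2 ratio of -2.74, and Msr1, also a scavenger receptor, had -1.46. In B lymphocyte-like cells Cd36 stood at 77.4 and 60.4 CPM, above RPM-like cells in the SCD-labelled library. Scarb1, the receptor for high density lipoprotein, had 0.53.

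The list of lipid droplets and esterification was split. Of 13 genes past the filter, 4 were at least 2-fold lower and 2 at least 2-fold higher, with a median of -0.28. Hilpda, an inhibitor of droplet lipolysis, stood at 6.91 and 20.8 CPM, a log2 ratio of 1.59, and the hormone-sensitive lipase Lipe had 1.13. Mgll, which splits monoglycerides, stood at 88.4 and 18.8 CPM, a log2 ratio of -2.23, and G0s2, an inhibitor of the lipase Pnpla2, had -1.44.

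Of 10 PPARG targets past the filter, 4 were at least 2-fold lower (Fabp4, Cd36, Lpl and Fabp5) and 1 was at least 2-fold higher (Hilpda), with a median of -0.15 over all 10 and 0.10 over the 6 that are not among the 8 genes. Fabp5, a relative of Fabp4 named after its values had been seen, had -1.88. Of 15 LXR targets, 2 were at least 2-fold lower and none higher, with a median of -0.13. These were Lpl and the fatty acid desaturase Scd1, which stood at 49.8 and 17.6 CPM, a log2 ratio of -1.50, and far higher in B lymphocyte-like cells (710 and 843 CPM). The highest was Apoc1, an apolipoprotein, with 0.53.

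Elsewhere in the pathway little was 2-fold apart. Of 16 genes of sterol synthesis and uptake, none was, with a median of 0.18. Fdft1, of squalene synthesis, had 0.79, and Hmgcs1 and Sqle were lowest with -0.80 and -0.72. Of 12 genes of efflux and transport, none was, with a median of 0.25, and the ends were Abcc1 and Abca7 (0.67 and 0.54) and Apoe and Osbpl1a (-0.93 and -0.67). Of 9 sterol receptors and partners, none was, with a median of 0.03 and with Ppargc1b highest (0.62) and Pparg lowest (-0.48). Of 5 lipoprotein lipase partners past the filter, Lpl was the 1 gene 2-fold apart, beside Angptl4, its inhibitor, with 0.26, Lmf1 with 0.17 and Sel1l with -0.05. These counts read against 4.2% of all genes lower and 9.02% higher.

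**Figure D5:**
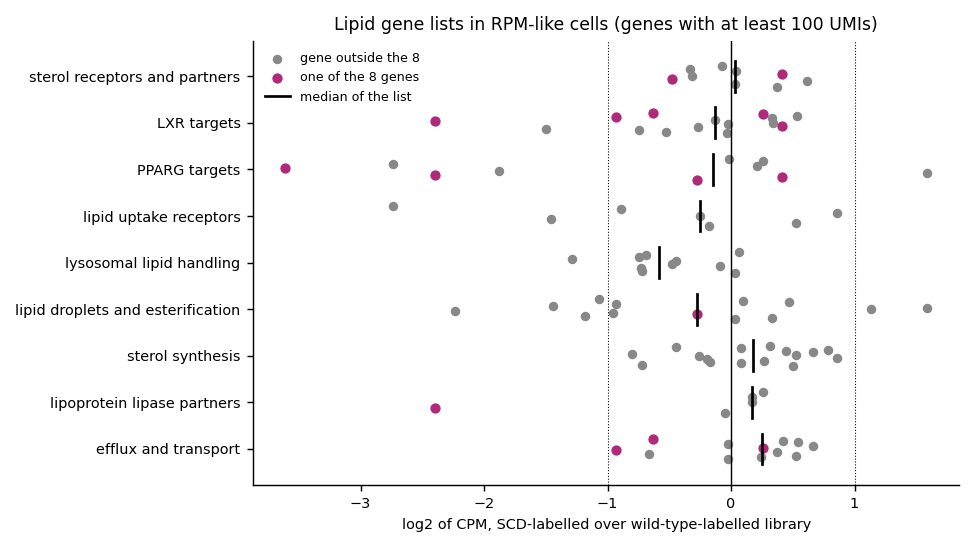
Log2 ratio, SCD-labelled over wild-type-labelled library, in RPM-like cells of each gene past the 100-UMI filter, by list (members of the 8 in purple, other genes in grey, medians as bars, dotted lines at 2-fold). Lysosomal genes lie mostly below 0, with a median of -0.58, and genes of sterol synthesis lie on both sides of 0, with a median of 0.18.

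The genes most like each member over cell clusters were found by the lower of the Pearson r in the 2 libraries, over log2(CPM + 10) in 23 clusters of the wild-type-labelled library and 18 of the SCD-labelled library. The clusters share a library and its free RNA, so r is a description. Lpl was most like Timp2 (r 0.99 and 0.97), Trf and Maf, and Nr1h3 most like Cadm1 (0.98 and 0.99), Spic and Lgmn. Spic is the transcription factor that RPMs require. Abca1 was most like Enpp1 (0.98 and 0.98), Tmem26 and Pld3, Pparg most like Itgb5 (0.96 and 0.96), Pilrb2 and Tpp1, and Apoe most like Hpgd (0.99 and 0.95), Pla2g7 and Slc11a1. Abcg1 was most like Plekhm2 (0.95 and 0.94), Impact and Cd86. Plin2 was most like Mpeg1 (0.95 and 0.98), Fcgr3 and Tnfrsf21. Fabp4 had the weakest likeness, to Lilra5 (0.94 and 0.86), Fcgr4 and Cd300e, of which Cd300e is a marker of Ly6c-low monocytes.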

How the data were processed

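By the study's methods, the authors ran Cell Ranger for alignment, barcode assignment and the removal of empty droplets. What they deposited are raw counts of UMIs, not normalized. The submitters' processing notes name Cell Ranger 4.0.0 and GRCm38.p6, and the matrix headers name another release. The DC-enriched libraries were not analysed here. Kept cells had 500 to 5000 genes, with less than 15% of UMIs mitochondrial and less than 30% from ribosomal proteins. They were more cells than the study gives for this experiment. Variable genes (2000, leaving out the 8 genes, the lipid lists, hemoglobin and sex-linked genes) were normalized with scran 1.30.0 in R 4.3.3. Leiden clusters came from 30 principal components and 15 neighbours at resolution 1 (scanpy 1.11.5, python-igraph 0.11.9, Python 3.11.15). Scrublet doublets were left in. Where its threshold marked under 0.5% of a library, the top 10% were removed in the alternative without doublets.

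The main B lymphocyte-like cluster, led by Igkc and Cd79a, was the reference for naming. A median of 4 times its level was asked of macrophage markers for RPM-like clusters, and besides 2 times of erythroid markers for EBI-like clusters, with 3 markers found in 10% of cells. Other classes needed 3 markers at 2 times the remaining cells, and monocyte and DC classes 1 of their own among the 10 leading genes. Clusters in which another class outnumbered it among those 10 were left unnamed. These limits were chosen with a first clustering in view. The 8 genes, lists and markers were chosen with earlier results of these data known.

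UMIs were summed per library and group and given as CPM. Genes with 100 UMIs or more over both libraries entered ratios and counts, and 2-fold was the limit for calling a gene apart. Ratio intervals are exact conditional binomial ones. All intervals are 95% and cover counting error only. Levels were not compared between genes. The calculation was tested on simulated data. The genes named are the 8, the 2 highest and 2 lowest of each list, and the 3 most like each member; a few that this rule would name are not reported here. Fabp5 and the leading and marker genes of clusters were named besides. Alternatives covered cell filter, doublets, normalization, resolution, clustering genes, separate clustering, library total, cell weighting, free RNA, choice of macrophages, UMI minimum and thinning depth, and all were run. The UMIs per 100 Vcam1 UMIs were added after the data had been seen.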

Additional observations from a re-analysis of the deposited data

Results flagged for a closer look

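In 8 cases a member's ratio between the libraries had the opposite sign in a monocyte or DC group, or in the clusters led by Cd209a and Mmp12, from that in RPM-like cells, with counting intervals clear of 0 on both sides. The difference between the groups was not tested, since there is 1 mouse per condition. Abcg1, with a log2 ratio of 0.26 in RPM-like cells, had -1.07 in Ly6c-high monocyte-like cells, -0.46 in the cluster led by Cd209a and -0.26 in the cluster led by Mmp12. Nr1h3, with 0.41 in RPM-like cells, had -0.61 in Ly6c-high and -0.26 in Ly6c-low monocyte-like cells, -1.07 in the cluster led by Cd209a and -0.67 in Ccr7-positive DC-like cells. Plin2, with -0.28 in RPM-like cells, had 0.58 in Ly6c-high monocyte-like cells. Erythroid-like cells were not among these groups, and there Abcg1 had -0.64 and Nr1h3 -0.39. Vcam1 was taken as the measure of free macrophage RNA. Its log2 ratio over the monocyte and DC groups and both clusters ran from -1.80 (led by Cd209a) to -0.03 (led by Mmp12). The part of Vcam1 in these ratios was not tested.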

How the results depend on the processing

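No paired analysis was possible because each condition has 1 library, so no replicate could be left out either. Under the alternatives, 31 values of the 3 summaries stayed within the limits set for them and 3 did not. The median log2 ratio of the 8 genes in RPM-like cells, -0.56, became -0.65 with cells of at least 200 genes, -0.41 as a mean over cells and -0.64 with the B lymphocyte-like level subtracted, and the cause was not tested. Of the ratios of single members, 73 moved by no more than counting error, 15 moved further and none changed sign. Lpl stayed between -2.47 and -2.39 and Fabp4 between -3.77 and -2.94. Of the shares of cells, 109 stayed and 51 moved, mostly with the depth of thinning. Fabp4 rests on 146 UMIs in RPM-like cells of the SCD-labelled library.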
